A study of Mus musculus with 32 samples.

Results

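This comparison sets 4 libraries of the PparDA genotype against 4 of the PparD genotype, all from mice on the control diet, 8 of the 32 libraries in the series. The 8 were taken by their group names in the deposited count table. PparD mice are labelled Ppard-fl/fl, and PparDA mice are labelled Ppard-fl/fl together with Ppara-null. Both groups share the floxed Ppard alleles, the C57BL6 strain label and the control diet, so the Ppara-null label is the labelled difference between them. The RNA is polyadenylated RNA of intestinal stem cells: crypts were dissociated and stained for the epithelial surface protein CD326 and with the viability dye DAPI, and GFP-high cells were sorted. The assay was high-throughput 3' digital gene expression, in which reads come from the ends of polyadenylated transcripts. The gene that drives GFP, whether and by which Cre the floxed alleles were recombined, the diet's composition and duration, and the animals' ages were not stated in the labels. The labels do not say whether each library is a different animal, and p-values therefore measure the spread between these libraries, whatever its source.

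PPARα and PPARδ, encoded by Ppara and Ppard, are nuclear receptors that are activated by fatty acids and their derivatives. Each pairs with a retinoid X receptor and binds DNA at direct repeats of a short sequence element, and their known targets include enzymes that oxidise fatty acids in mitochondria and peroxisomes, enzymes of ketogenesis and lipid droplet proteins. In the intestine, Lgr5-positive stem cells at the crypt base give rise to absorptive enterocytes and to the secretory lineages, which are goblet, Paneth, enteroendocrine and tuft cells. The study asked how these receptors take part in the response of intestinal stem cells to diet, and this comparison holds the diet and the Ppard label fixed.

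The following stretches of sequence show the kind of element the results below touch on. They are the 250 bases before the annotated start of Muc2, a goblet cell gene that rose in PparDA, of Acadvl, the fatty acid oxidation gene that fell, and of Cyp2c65, another gene that fell. They come from RefSeq on GRCm38, on the strand of the gene, at chr7:141690090-141690339, chr11:70015429-70015678 and chr19:39060756-39061005. Capitals mark an E-box (CAGCTG) in Muc2, 112 to 107 bases before the start, a nuclear receptor element (AGGTCA) in Acadvl, 87 to 82 bases before it, and a match to a motif of the nuclear receptor HNF4 (CAAAGTCCA) in Cyp2c65, 116 to 108 bases before it.
Muc2: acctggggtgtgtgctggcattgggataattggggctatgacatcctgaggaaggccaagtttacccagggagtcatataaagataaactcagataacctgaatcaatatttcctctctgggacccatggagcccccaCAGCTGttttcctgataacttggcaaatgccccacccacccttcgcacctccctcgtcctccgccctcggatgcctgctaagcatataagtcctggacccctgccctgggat
Acadvl: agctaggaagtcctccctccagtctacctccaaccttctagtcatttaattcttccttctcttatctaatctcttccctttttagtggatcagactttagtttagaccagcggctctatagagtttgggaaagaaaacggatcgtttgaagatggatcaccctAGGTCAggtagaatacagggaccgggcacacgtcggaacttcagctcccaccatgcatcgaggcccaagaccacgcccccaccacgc
Cyp2c65: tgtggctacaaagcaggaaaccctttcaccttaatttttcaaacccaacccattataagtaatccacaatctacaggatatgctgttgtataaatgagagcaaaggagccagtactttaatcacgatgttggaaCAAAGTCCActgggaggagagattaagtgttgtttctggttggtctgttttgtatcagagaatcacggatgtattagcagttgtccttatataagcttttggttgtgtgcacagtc
These genes and motifs were chosen after their values and sequences were seen, and both strands were searched. Of all 32851 windows of this length, 4271 hold CAGCTG, 4607 hold AGGTCA and 126 hold CAAAGTCCA (0.384%). A loose form of the direct repeat bound by PPAR with its partner, which is AGGNCA repeated after 1 free base, is in 0.338% of the windows, in 1 of the 37 windows matched to genes that rose, that of Ccl6, and in 0 of the 22 matched to genes that fell. A match describes the letters only.

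Of 5872 genes tested, 114 passed an adjusted p under 0.05 in edgeR's quasi-likelihood test with Benjamini-Hochberg adjustment (1.94%), and such genes are called here. 76 rose in PparDA (1.29%) and 38 fell (0.647%). Without the threshold, 704 genes had an unadjusted p under 0.05, where 294 would be expected by chance, and the median log2 fold change over all genes was -0.01. The fit carried a term for the run, the block of 8 consecutive library numbers that holds each of the 8 groups once. Without that replicate block 70 genes were called, all of them among the 114. The 4 libraries of PparD and the 4 of PparDA did not overlap in 93 of the 114 called genes and in 369 of all tested genes (6.28%).

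The targeted genes gave too few counts to check the labels. Ppara (chr15:85734983-85802819, mm10) had 2, 3, 3 and 4 counts in the PparD libraries of runs 1 to 4 and 4, 1, 1 and 4 in the PparDA libraries. Ppard (chr17:28232700-28301474) had 1, 2, 1 and 7 counts in PparD and 3, 6, 5 and 1 in PparDA. Neither passed the filter on low counts, and reads at the 3' end need not cross a deleted exon. The 8 libraries held 612672 to 712604 counts and 11755 to 12212 genes with a count. Levels below are counts scaled to the library total (CPM) of the counts in tested genes after edgeR's TMM scaling, given for runs 1 to 4 in that order. In both groups Xist, which female cells express, was high in runs 1 and 3, and Ddx3y, a gene of the Y chromosome, in runs 2 and 4. By these genes, the fits with runs 1 and 3 only and with runs 2 and 4 only each compare libraries of a single sex. A part of sex in their results was not tested.

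The sorted cells carried stem cell transcripts in every library of both groups. Olfm4, a secreted glycoprotein that marks crypt base stem cells, was at 11391, 13191, 9884 and 11663 CPM in PparD and at 11343, 10210, 9421 and 12433 CPM in PparDA, a log2 fold change of -0.09 ± 0.10 (SE; adjusted p 0.83). Lgr5, the Wnt-amplifying receptor that defines these cells, was at 56.6, 49.0, 28.8 and 65.9 CPM and at 48.0, 36.2, 50.1 and 47.3 CPM, with a log2 fold change of -0.14 ± 0.22 (adjusted p 0.89). The ranges of both genes overlapped between the groups. Of 20 tested stem cell markers 8 were higher and 12 lower in PparDA, with a median log2 fold change of -0.08. None was called by edgeR, by DESeq2 or by limma, and 4 had an unadjusted p under 0.05, all lower. The smallest p was that of Tnfrsf19, a Wnt-responsive receptor of the tumour necrosis factor family, at 14.9, 26.7, 25.7 and 30.1 CPM in PparD and 13.9, 13.6, 6.27 and 6.76 CPM in PparDA. Its groups did not overlap, and its log2 fold change of -1.22 ± 0.34 had an adjusted p of 0.055. It was called with edgeR's robust prior (adjusted p 0.0483), without the PparDA library of run 1 (0.0319) and without the PparD library of run 1 (0.0464). Of 25 proliferation genes 23 were lower, with a median of -0.18, none was called by any of the 3 tools, and 6 had an unadjusted p under 0.05, of which 5 were lower and 1 higher.

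Goblet cell genes were higher in PparDA. Of 13 tested genes of the goblet cell list 12 were higher and 10 rose past the threshold, against 1.29% of all genes, and the median log2 fold change was 1.27. The list was chosen with earlier results of these data known, so its direction is no independent evidence. The summed level of its 19 listed genes was 2223, 1724, 3078 and 2972 CPM in PparD and 3247, 6722, 6638 and 7648 CPM in PparDA. The groups did not overlap in this sum, and the PparDA library of run 1 lay nearest to PparD. In bulk RNA, more cells of a type and more RNA per cell cannot be told apart.

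Muc2, the gel-forming mucin of intestinal mucus, was at 2.98, 1.49, 4.54 and 11.5 CPM in PparD and at 17.0, 19.6, 29.8 and 84.5 CPM in PparDA. All 4 PparDA libraries lay above all 4 PparD libraries, with a log2 fold change of 2.78 ± 0.63 (adjusted p 0.013). Clca1, a secreted metalloprotease of mucus, was at 14.9, 4.46, 28.8 and 33.0 CPM and at 41.8, 235, 128 and 177 CPM (log2 fold change 2.74 ± 0.59, adjusted p 0.0089). Zg16, a lectin that binds bacteria in mucus, was at 17.9, 20.8, 42.4 and 57.3 CPM and at 96.0, 211, 252 and 362 CPM (2.69 ± 0.63, adjusted p 0.016). Both genes had separate groups. Fcgbp, a mucin-associated protein, rose by 1.89 on the log2 scale, and Tff3, the goblet trefoil peptide, by 1.22, again with separate groups. Agr2, an endoplasmic reticulum protein needed for mucin folding, rose by 1.15, Spink4 by 1.27, the chemokine Ccl6 by 1.60, the guanylin precursor Guca2a by 1.49 and the kallikrein Klk1 by 0.82. Of these 5 only Klk1 had groups that did not overlap.

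The count of goblet calls moved with single libraries, while the direction did not. Without the PparD library of run 2, the lowest of all 8 in the sum, 0 of the 13 genes were called, with the median at 1.09. The count was 2 without the PparDA library of run 3 or of run 4, 4 without the PparD library of run 1, 5 without the PparDA library of run 2, 6 without the PparD library of run 3 or of run 4 and 10 without the PparDA library of run 1. In each of the 8 left-out fits 12 of 13 genes stayed higher, and the median lay between 1.08 and 1.59. Without the replicate block 6 were called, with edgeR's robust prior 3, with DESeq2 9 and with limma 8. With runs 1 and 3 only 0 were called, 11 of 13 were higher and the median was 0.95. With runs 2 and 4 only 2 were called, 12 were higher and the median was 1.62.

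**Figure D1:**
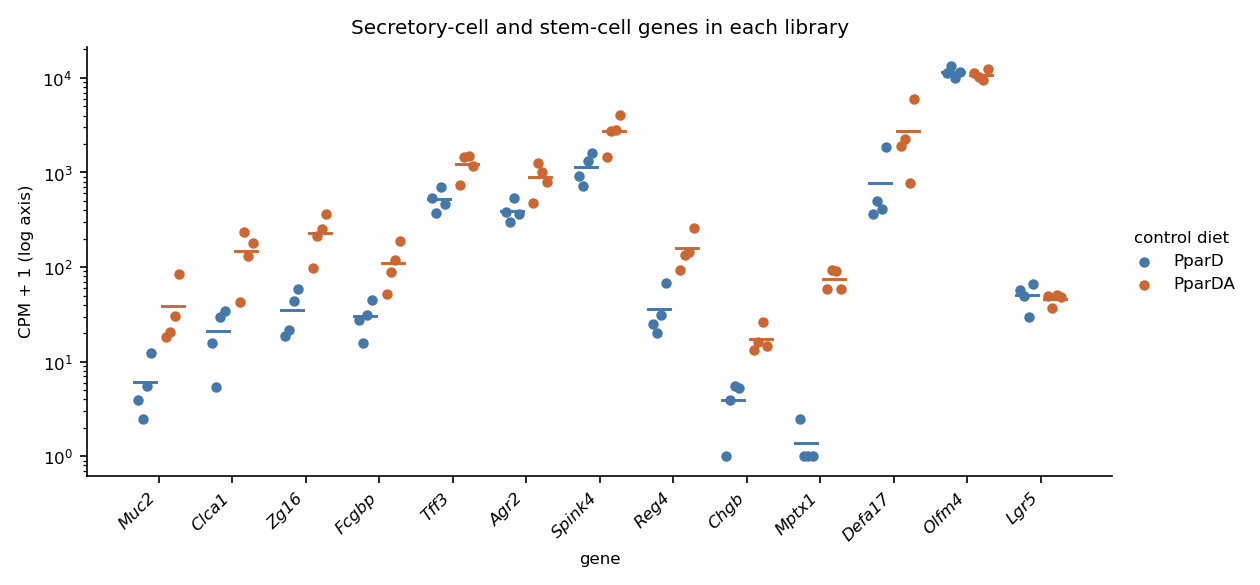
CPM + 1 on a log axis of 13 genes in the 4 PparD (blue) and 4 PparDA (orange) libraries on the control diet; each point is a library, ordered by run within a group, and the bar is the mean of the 4. The 7 goblet genes at left, Reg4, Chgb and Mptx1 had higher means in PparDA, and the stem cell genes Olfm4 and Lgr5 at right overlapped.

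Of the other secretory lineages, enteroendocrine and Paneth cell genes were mostly higher, with fewer genes past the threshold, and no tuft cell gene passed it. All 8 tested enteroendocrine genes were higher, with a median log2 fold change of 1.62, and 2 rose, against 1.29% of all tested genes. Reg4, a secreted lectin of enteroendocrine and deep crypt secretory cells, was at 23.8, 19.3, 30.3 and 67.4 CPM in PparD and at 91.4, 133, 144 and 259 CPM in PparDA (2.13 ± 0.41, adjusted p 0.0030). Chgb, a granin of hormone granules, was at 0, 2.97, 4.54 and 4.30 CPM and at 12.4, 15.1, 25.1 and 13.5 CPM (2.39 ± 0.54, adjusted p 0.013). Neither gene's groups overlapped, and Reg4 kept its call in every alternative tried. Chgb lost its call in 3 of the 8 left-out fits and within either pair of runs. The summed level of the enteroendocrine list includes Reg4 at the levels above. This sum was 77.5, 35.7, 135 and 146 CPM in PparD and 191, 322, 393 and 367 CPM in PparDA. Reg4 alone made up 30.3 of the 135 CPM in the PparD library of run 3. It made up 91.4 of the 191 CPM in the PparDA library of run 1. Reg4 is also a gene of deep crypt secretory cells, so this sum does not describe enteroendocrine cells alone. Sst, which encodes somatostatin, was at 0, 0, 3.03 and 0 CPM and at 1.55, 9.04, 37.6 and 5.07 CPM, and was not called (adjusted p 0.12).

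Of 22 tested Paneth cell genes 21 were higher, with a median log2 fold change of 1.46, and 2 rose (9.09%, against 1.29% of all tested genes). The Paneth sum was 2560, 4573, 2713 and 19376 CPM in PparD and 15880, 12858, 4683 and 48144 CPM in PparDA, so that the library of run 4 was the highest of its group in both and the ranges overlapped. In each run the PparDA library held more than the PparD library. Mptx1, a mucosal pentraxin, had 1 count in all 4 PparD libraries together and 189 counts in PparDA, at 57.3, 91.9, 89.3 and 57.5 CPM. Scaled to library size that is a ratio of 201 (95% counting interval 35.7 to 7986). Defa17, an α-defensin of Paneth cell granules, was at 365, 493, 409 and 1856 CPM and at 1918, 2284, 776 and 6049 CPM (1.78 ± 0.42, adjusted p 0.017). Its groups overlapped through the PparD library of run 4 and the PparDA library of run 3. The call of Defa17 was lost in 3 of the 8 left-out fits, without the replicate block, within either pair of runs and with edgeR's robust prior. Lysozyme, Lyz1, was at 148, 395, 150 and 1526 CPM and at 660, 738, 263 and 4207 CPM and was not called (adjusted p 0.24). Fitted on the 8 libraries alone, 13 of 21 Paneth genes were called, all higher, where 126 of all 4766 genes tested were called. With runs 1 and 3 only 0 of 21 Paneth genes were called, and with runs 2 and 4 only 1 of 22. The α-defensins are near-identical copies and Mptx1 has a close relative, between which reads can be split, so their single values are uncertain. Of 8 tuft cell genes 7 were higher, with a median of 0.66, and their sum was 342 to 404 CPM in PparD and 331 to 689 CPM in PparDA, with the lowest value in the PparDA library of run 1. None was called by the 3 tools, and 3 had an unadjusted p under 0.05, all higher.

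Enterocyte genes were higher too, but none passed the threshold in the fit of 32 libraries. Of 21 tested, 20 were higher and 12 had groups that did not overlap, against 3.61% of all genes, and the median log2 fold change was 0.83. The smallest p was that of Rbp2, the retinol carrier of enterocytes, at 10.4, 2.97, 6.06 and 5.73 CPM in PparD and 26.3, 27.1, 62.7 and 76.0 CPM in PparDA (2.92 ± 0.89, adjusted p 0.094). Sis, the sucrase-isomaltase of the brush border, was at 17.9, 4.46, 15.1 and 7.17 CPM and 51.1, 82.9, 61.1 and 74.3 CPM (2.56 ± 0.84, adjusted p 0.14). The apolipoprotein Apoa1 was at 26.8, 37.1, 48.4 and 33.0 CPM and 175, 134, 102 and 216 CPM (2.15 ± 0.77, adjusted p 0.20). In all 3 genes each PparDA library lay above every PparD library. In this list 7 genes had an unadjusted p under 0.05, all higher, DESeq2 called 1 and limma 0. Fitted on the 8 libraries alone, 5 of 14 were called, where 126 of all 4766 genes tested were called. Among the 5 were Rbp2 (adjusted p 0.0011), Sis (0.0015) and Apoa1 (0.000516) in edgeR's test. The enterocyte sum ranged from 3604 to 4538 CPM in PparD and from 4837 to 5282 CPM in PparDA, and from 3558 to 10042 CPM in PparA on the control diet.

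**Figure D2:**
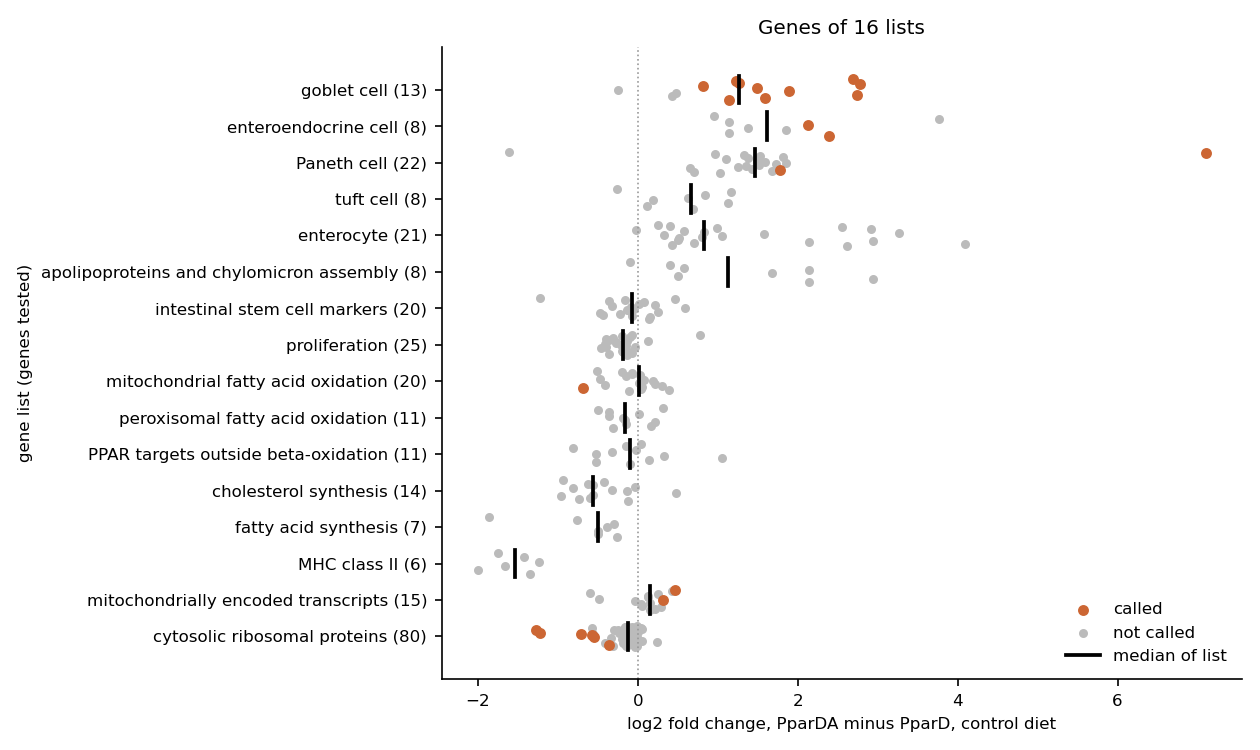
Log2 fold change of each tested gene, PparDA minus PparD on the control diet, for 16 gene lists; a point is a gene, orange where it was called, and the black bar is the list's median, with the number of genes tested in brackets. The medians of the goblet, enteroendocrine, Paneth and enterocyte lists lay at 1.27, 1.62, 1.46 and 0.83, and those of the stem cell and fatty acid oxidation lists near 0.

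Fatty acid oxidation genes, among the best known PPAR targets, differed little between the groups. Of 20 tested mitochondrial genes 11 were higher and 9 lower, the median log2 fold change was 0.02, and 1 fell. That gene was Acadvl, which encodes the very long chain acyl-CoA dehydrogenase of the first oxidation step. It was at 115, 95.1, 124 and 143 CPM in PparD and at 88.3, 63.3, 67.4 and 74.3 CPM in PparDA, with no overlap (-0.69 ± 0.16, adjusted p 0.013). Wildtype libraries on the same diet had 68.4 to 97.7 CPM, so 3 of the 4 PparD libraries lay above all of them, and 2 of the 4 PparDA libraries lay below all of them. Its call was lost without the replicate block, within either pair of runs and without the PparDA library of run 3 or 4 or the PparD library of run 4, at log2 fold changes between -0.80 and -0.60 in all alternatives.

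The other oxidation genes fixed for the text were not called. Cpt1a, which commits fatty acids to mitochondrial import, was at 37.2, 44.6, 15.1 and 33.0 CPM in PparD and 29.4, 27.1, 21.9 and 20.3 CPM in PparDA (-0.41 ± 0.36, adjusted p 0.74). Slc25a20, the carnitine carrier of the inner membrane, had a log2 fold change of -0.51 ± 0.27 (adjusted p 0.48), and Eci2, an auxiliary isomerase for unsaturated fatty acids, of -0.47 ± 0.23 (adjusted p 0.41). Acadl, Hadha and Acaa2, the long chain dehydrogenase, the α subunit of the trifunctional protein and a thiolase, had values of 0.40 ± 0.36, -0.07 ± 0.17 and -0.11 ± 0.15. The sign of Acadl and Hadha turned in some alternatives. The sum of the list was 2945 to 3334 CPM in PparD and 2995 to 3154 CPM in PparDA, ranges that overlap.

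Of 11 PPAR targets outside oxidation 7 were lower, with a median of -0.10. None was called by edgeR, DESeq2 or limma, and 3 had an unadjusted p under 0.05, all lower. Plin2, a lipid droplet coat protein, was at 165, 129, 188 and 193 CPM and at 170, 113, 128 and 127 CPM (-0.32 ± 0.15, adjusted p 0.38). Angptl4, a secreted inhibitor of lipoprotein lipase, had 8.94 to 17.8 CPM and 7.53 to 23.7 CPM (0.14 ± 0.53), a sign that turned in some left-out fits. Fabp1, the liver-type fatty acid carrier, was higher in PparDA, at 155, 180, 301 and 148 CPM and at 328, 261, 454 and 585 CPM (1.05 ± 0.60, adjusted p 0.51, and 0.0168 when the 8 libraries were fitted alone), and the intestinal carrier Fabp2 had 0.32 ± 0.23. Both carriers also belong to the enterocyte list. Pdk4 was not among the genes tested. Of 11 peroxisomal genes 7 were lower (median -0.16). None was called by the 3 tools, and 3 had an unadjusted p under 0.05, of which 2 were lower and 1 higher.

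Genes of lipid synthesis lay lower in PparDA without passing the threshold. Of 14 cholesterol synthesis genes 13 were lower, with a median log2 fold change of -0.56. edgeR and DESeq2 called 0, limma called 1, and 8 had an unadjusted p under 0.05, all lower. Srebf2, the transcription factor that drives this pathway, was at 25.3, 28.2, 19.7 and 24.4 CPM in PparD and 12.4, 15.1, 10.97 and 11.8 CPM in PparDA, with no overlap (-0.94 ± 0.26, adjusted p 0.066, and 0.042 in limma). Srebf2 lies at -3.59 Mb from the middle of Ppara on chromosome 15, and a part of this position in its difference was not tested. All 7 fatty acid synthesis genes were lower (median -0.50). None was called by the 3 tools, and 3 had an unadjusted p under 0.05, all lower. On the high-fat diet the medians of both lists for the same genotypes were 0.15 and 0.10, and none of these genes was called in edgeR's test of the difference between the diets, with 5 and 2 at an unadjusted p under 0.05, all lower, where Srebf2 had an adjusted p of 0.43.

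Among called genes whose groups did not overlap and whose mean reached 10 CPM, leaving out predicted genes and pseudogenes, the 12 largest rises were Mptx1, Defa35, AA465934, Fgf1, Tmem116, Lrrc19, Rep15, Clec2h, Aldh1a3, Muc2, Clca1 and Zg16. Fgf1, a secreted fibroblast growth factor, was nearly off in PparD at 5.96, 1.49, 4.54 and 7.17 CPM and was at 144, 140, 138 and 186 CPM in PparDA (5.05 ± 0.70, adjusted p 3.19e-05). Rep15, which encodes a partner of the vesicle protein Rab15, was at 56.6, 69.8, 98.4 and 68.8 CPM and at 1064, 1024, 512 and 541 CPM (3.44 ± 0.68, adjusted p 0.0033). The processed transcript AA465934 was at 5.94 to 10.6 CPM and at 132 to 322 CPM (5.09 ± 0.93). Aldh1a3, an enzyme that makes retinoic acid, was at 7.45, 1.49, 9.08 and 8.60 CPM and at 55.8, 42.2, 54.8 and 65.9 CPM (3.02 ± 0.53, adjusted p 0.0012). These 4 kept their calls in every alternative. Calls of Clec2h, Lrrc19, Zg16, Muc2 and Clca1 were lost in 7, 4, 3, 2 and 1 of the 8 left-out fits. Mptx1, Defa35 and Tmem116 kept theirs in all 8 but lost them with runs 1 and 3 only. Defa35 also lost its call without the replicate block. Tmem116, a membrane protein, was at 0 to 4.47 CPM and at 29.4 to 77.7 CPM (4.38 ± 0.72). Lrrc19, a leucine-rich repeat receptor, had 2 counts against 34, a ratio of 18.1 (95% counting interval 4.64 to 155), and Defa35, another α-defensin, 1 count against 106.

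Fgf1 and Rep15 were as high with the Ppara-null label on the high-fat diet but not in every library of PparA on the control diet. Fgf1 was at 111 to 192 CPM in PparDA on the high-fat diet, where PparD had 2.98 to 8.80 CPM. In PparA on the control diet it ranged from 4.66 to 171 CPM, with a mean of 71.0 ± 80.2 CPM (SD, n = 4), and in wildtype from 4.13 to 8.80 CPM. Rep15 ranged likewise from 70.6 to 1117 CPM in PparA, against 70.1 to 86.6 CPM in wildtype.

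The 12 largest falls were Ldb3, Pnp2, Paqr5, Tnfsf13os, Apobec3, Fam173b, Slc7a7, Haus4, Cyp2c65, Wdr31, Sdc2 and Rps24. Ldb3, a PDZ-LIM protein known from muscle Z-discs, was at 47.7, 41.6, 40.9 and 37.3 CPM in PparD and at 1.55, 1.51, 0 and 0 CPM in PparDA, 113 counts against 2. Pnp2, a copy of the purine nucleoside phosphorylase gene, was at 55.1, 41.6, 27.3 and 38.7 CPM and at 1.55, 0, 0 and 1.69 CPM, 110 counts against 2. The ratios were 53.1 (95% counting interval 14.4 to 444) and 51.7 (13.97 to 432). Reads of Pnp2 can be split with its near-identical neighbour, so its value is uncertain. Cyp2c65, a cytochrome P450 that oxidises fatty acids, was at 56.6, 53.5, 45.4 and 64.5 CPM and at 17.0, 15.1, 12.5 and 28.7 CPM (-1.59 ± 0.29, adjusted p 0.0015). Its high-fat value was -1.31 (adjusted p 0.0044). Sdc2, a heparan sulfate proteoglycan of the cell surface, fell by 1.48 and Slc7a7, the light chain of a transporter of basic amino acids, by 1.86. Calls of Paqr5, Tnfsf13os, Wdr31 and Haus4 were lost in 5 to 8 of the 8 left-out fits. Tnfsf13os lies antisense to another gene, and use of strand in counting is not given, so reads of the 2 cannot be told apart.

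**Figure D3:**
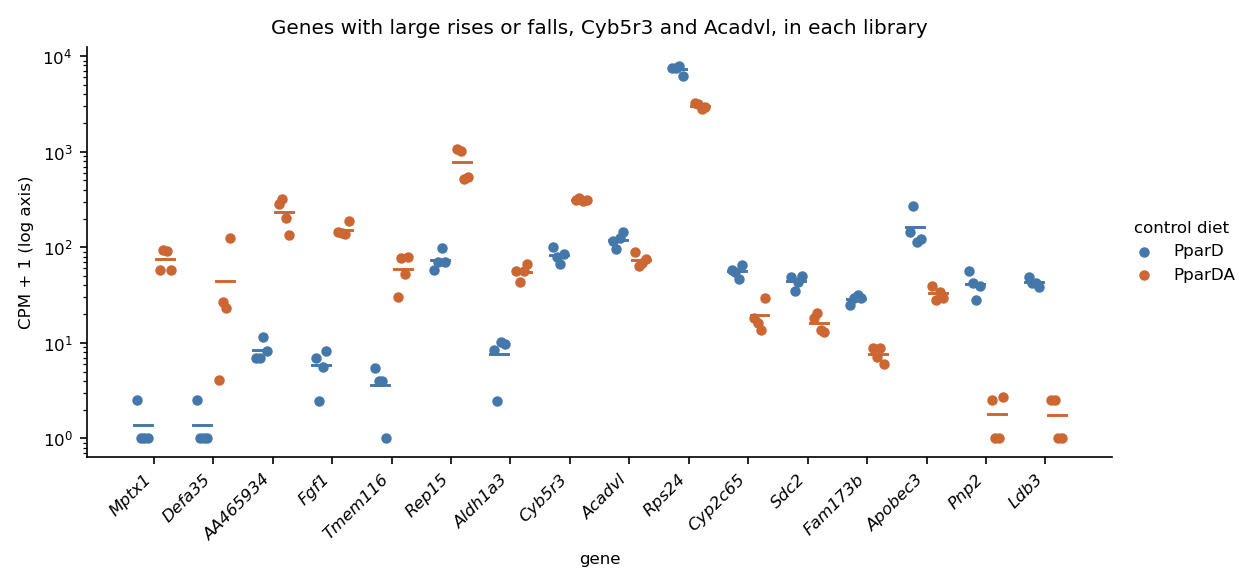
CPM + 1 on a log axis of 16 genes with large rises or falls, Cyb5r3 and Acadvl among them, in the 4 PparD (blue) and 4 PparDA (orange) libraries on the control diet; bars are means of 4. Fgf1 went from 1.49 to 7.17 CPM in PparD to 138 to 186 CPM in PparDA, and Ldb3 from 37.3 to 47.7 CPM to 0 to 1.55 CPM.

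Called genes were more frequent on chromosome 15, which carries Ppara, than elsewhere: 13 of 218 tested genes (5.96%) against 101 of 5654 outside it (1.79%). No test was made of this difference. Within 5 Mb of Ppara 4 of 38 tested genes were called (10.5%), within 20 Mb 5 of 144 (3.47%), and beyond 20 Mb 8 of 74 (10.8%). Cyb5r3, the NADH-cytochrome b5 reductase, lies 2.61 Mb away (chr15:83153494-83172592) and had the smallest p of these 13: it was at 99.8, 77.3, 65.1 and 84.6 CPM in PparD and at 308, 328, 302 and 311 CPM in PparDA (1.94 ± 0.14, adjusted p 1.94e-10). Apobec3, a cytidine deaminase that restricts retroviruses, lies 5.87 Mb away (chr15:79891659-79915906) and was at 143, 269, 112 and 122 CPM and at 38.7, 27.1, 32.9 and 28.7 CPM (-2.32 ± 0.27, adjusted p 3.91e-06). Serhl, a serine hydrolase-like gene 2.67 Mb away, fell by 1.23, and Gm29666, 0.854 Mb away, rose by 0.71. Gm29666 lost its call in 7 of the 8 left-out fits, without the replicate block, within either pair of runs and in limma. Serhl lost its call in 1 of the 8 left-out fits and within either pair of runs. Rpl31-ps8, a pseudogene 5.0 Mb away, was called on the 191 CPM of the PparD library of run 1, with 0 in the other 7 libraries, and lost its call without that library, without the PparDA library of run 1, without the replicate block and in DESeq2 and limma.

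The 8 called genes farther along the chromosome lay between 30.6 and 54.2 Mb from Ppara. Cmbl, a hydrolase, rose from 32.8, 49.0, 28.8 and 24.4 CPM to 139, 116, 133 and 166 CPM (2.03 ± 0.28). Ywhaz, which encodes 14-3-3ζ, rose from 152, 135, 121 and 153 CPM to 279, 288, 293 and 296 CPM (1.04 ± 0.13), and Deptor, an inhibitor that binds mTOR, from 42.4 to 57.3 CPM to 107 to 157 CPM (1.55 ± 0.24). Fam173b, next to Cmbl, fell by 2.02. Emc2 and Rida rose by 0.62 and 0.60, and Polr2k fell by 0.62. These 3 were named after their values were seen. Emc2, Rida and Polr2k lost their calls in 3, 5 and 7 of the 8 left-out fits and within either pair of runs. In PparA against wildtype, which carries the Ppara-null label without floxed Ppard and shares no library with this comparison, the log2 fold changes were 1.82 for Cyb5r3, -1.76 for Apobec3, -1.36 for Serhl, 1.77 for Cmbl and 1.01 for Ywhaz, all called, and 0.40 for Deptor (adjusted p 0.60). The difference between both comparisons in Deptor had an adjusted p of 0.37.

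**Figure D4:**
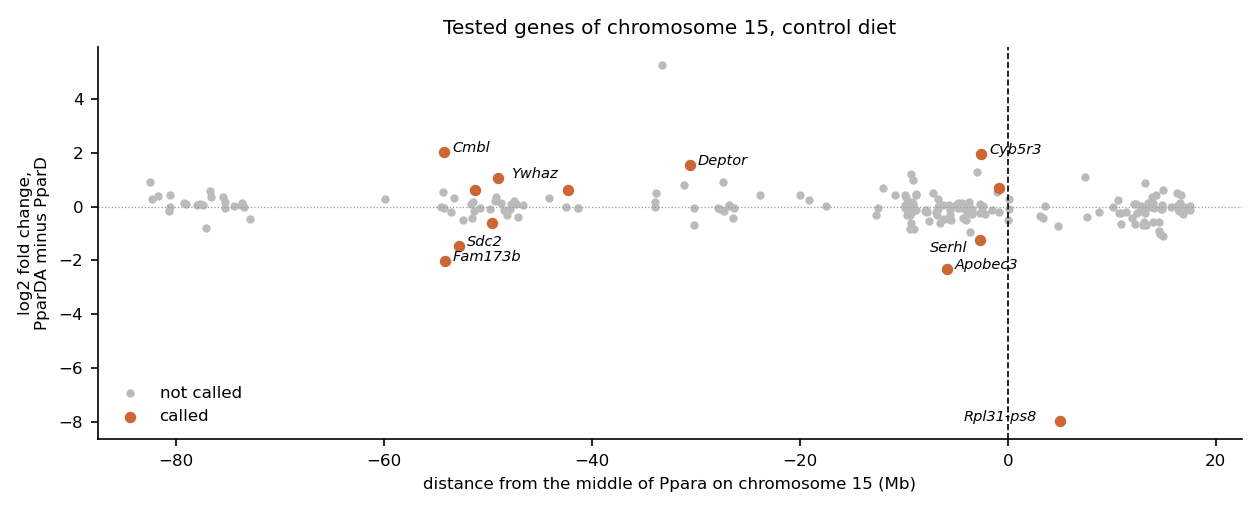
Log2 fold change, PparDA minus PparD on the control diet, of the 218 tested genes of chromosome 15 against the distance in Mb from the middle of Ppara (dashed line). The 13 called genes (orange) fall near Ppara and between 30.6 and 54.2 Mb before it.

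Chromosome 14 held 9 of the 114 called genes, of 215 tested (4.19%, against 1.94% of all tested genes), and 6 of the 38 falls, while it holds 3.66% of the tested genes. The falls were Rpl15, Rps24, Ldb3, Pnp2, Slc7a7 and Haus4. Pnp2, Rnase4, Oxa1l, Slc7a7 and Haus4 start between 51.0 and 54.5 Mb. Oxa1l, an inner membrane insertase of mitochondria, rose from 44.7, 35.7, 19.7 and 25.8 CPM to 130, 113, 128 and 135 CPM (2.01 ± 0.29, adjusted p 8.43e-05), and Slc7a7 fell from 35.8, 19.3, 31.8 and 30.1 CPM to 3.10, 10.5, 9.40 and 8.45 CPM (-1.86 ± 0.41, adjusted p 0.011). Their annotated 3' ends overlap on opposite strands (chr14:54360834-54369673 and chr14:54369442-54417780), so the reads of the 2 cannot be told apart without strand. In PparDA against PparD on the high-fat diet, edgeR also called Rpl15, Ldb3, Pnp2, Rnase4, Gm4742, Oxa1l and Haus4, each with the same sign. It did not call Rps24 (adjusted p 0.72) or Slc7a7 (0.11) there. In PparA against wildtype none of the 9 was called by edgeR, and Oxa1l had 0.84 (adjusted p 0.31). Rnase4 and Oxa1l were named after their values were seen.

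Cytosolic ribosomal protein genes were slightly lower in PparDA: 76 of 80 tested, with a median log2 fold change of -0.12. Of the 80, 21 were higher with runs 2 and 4 only (median -0.06) and 5 with runs 1 and 3 only (-0.17). At minimum count 30, 16 were higher (-0.08). The summed level of the list was 161722 to 236361 CPM in PparD and 168027 to 187664 CPM in PparDA, so the ranges overlapped. In run 4 the PparDA library held more than the PparD library. In this list 6 fell (7.5%, against 0.647% of all tested genes) and 0 rose, and 12 genes had an unadjusted p under 0.05, all lower. Rps24 was at 7587, 7570, 7964 and 6277 CPM in PparD and at 3250, 3176, 2797 and 2955 CPM in PparDA (-1.27 ± 0.15, adjusted p 6.43e-06) and Rps15a at 2996, 3600, 3273 and 2564 CPM and 1025, 1696, 1172 and 1490 CPM (-1.22 ± 0.21). Rpl5, Rplp0 and Rpl15 fell by 0.55, 0.57 and 0.36. Their calls were lost in 2, 3 and 6 of the 8 left-out fits and within either pair of runs. Rpl5 and Rpl15 also lost theirs without the replicate block and in the 8 libraries fitted alone. Both groups of this comparison lay apart from the rest of the series in Rps24, where the other 6 groups ranged from 1093 to 2585 CPM. Many processed copies of these genes are annotated, and their single values are uncertain. On the high-fat diet 59 of the 80 genes were higher in PparDA than in PparD (median 0.05). In PparA against wildtype on the control diet 60 were higher (median 0.10). In PparDA on the control diet 12 of 15 mitochondrially encoded transcripts were higher than in PparD (median 0.15). Of these, mt-Nd2 and mt-Rnr2 rose by 0.31 and 0.46 (13.3% of the list, against 1.29% of all tested genes). Both calls were lost without the replicate block, in the 8 libraries fitted alone and within either pair of runs. They were also lost in 3 and 5 of the 8 left-out fits. Of 74 nuclear genes of the respiratory chain 49 were lower (median -0.05), and 1 fell (1.35%, against 0.647% of all tested genes).

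Markers of cells that the sort should leave out were few. The summed level of 24 lymphocyte and myeloid genes was 5.94 to 24.4 CPM in PparD and 15.1 to 30.4 CPM in PparDA, and none passed the filter on low counts. That of 18 stromal and endothelial genes was at most 19.3 and 15.7 CPM, and that of 5 red blood cell genes at most 1.49 CPM. The 6 tested MHC class II genes, which are expressed by antigen-presenting cells and by crypt epithelium, were all lower, with a median log2 fold change of -1.54. None was called by the 3 tools, and 5 had an unadjusted p under 0.05. Their sum was 450, 1413, 359 and 1038 CPM in PparD and 265, 70.8, 548 and 316 CPM in PparDA, so the ranges overlapped and runs 2 and 4 held the wide gaps. With runs 2 and 4 only, all 6 were called lower (median -2.74), where 57 of all 5996 genes tested were called. With runs 1 and 3 only, 0 were called, 2 were higher and the median was -0.11. H2-Aa, one chain of these molecules, was at 113, 520, 65.1 and 300 CPM and at 40.3, 16.6, 132 and 76.0 CPM (-2.00 ± 0.86, adjusted p 0.34, and 0.0042 with runs 2 and 4 only).

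The genotype difference was set beside the same difference on the high-fat diet, in 8 other libraries. There 136 genes were called (2.32%), 75 higher (1.28%) and 61 lower (1.04%). Of the 76 genes that rose on the control diet 43 also rose there, 56.6% of the first list and 57.3% of the second, and of the 38 that fell 14 also fell, 36.8% and 23.0%. Among the called genes 74 of 76 and 30 of 38 had the same sign. The test of the difference between the diets called 6 genes (0.102%), among them Rps24, Gm15536, Gm28037, Rpl31-ps8 and Gm9794. Without the replicate block it called 2.

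Goblet cell genes had a high-fat median of 0.34, and none of the 13 was called there by edgeR, with 3 at an unadjusted p under 0.05. Muc2 was at 11.6 to 24.9 CPM in PparD and 19.3 to 52.5 CPM in PparDA there, and its difference on the log2 scale was 0.97 ± 0.50 (adjusted p 0.40). The difference between the diets was not called in any goblet gene, with 3 at an unadjusted p under 0.05, and had an adjusted p of 0.80 in Muc2, so the data do not show that the rise depends on the diet. The goblet sum had its lowest group median in PparD on the control diet, at 2598 CPM, and its highest in PparDA on the control diet, at 6680 CPM; wildtype on that diet had 4663 CPM. On the high-fat diet Acadvl (-1.32 ± 0.16), Eci2 (-1.23) and Slc25a20 (-1.12) fell, but their differences between the diets had adjusted p-values of 0.66, 0.74 and 0.88.

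PparA against wildtype on the control diet called 53 genes (0.903%), 37 higher (0.630%) and 16 lower (0.272%), and shares no library with PparDA against PparD. Of the 76 rises 20 were also called there, 26.3% of the first list and 54.1% of the second, and of the 38 falls 5, 13.2% and 31.2%. The goblet median there was 0.05, and 1 of the 13 genes, Klk1, was called, at 0.85. The test of the difference between both comparisons called 7 genes (0.119%), 2 higher (0.0341%) and 5 lower (0.0851%): Rps24, Rps26, Rpl28, Add3, Gm15536, Rps26-ps1 and Rpl31-ps8. Add3, an adducin of the membrane skeleton, was at 34.3, 31.2, 53.0 and 34.4 CPM in PparD and 97.6, 58.8, 90.9 and 76.0 CPM in PparDA (1.08 ± 0.18), against -0.43 in PparA against wildtype (adjusted p of the difference 0.0049). No goblet gene was called in it, with 7 at an unadjusted p under 0.05, all higher, and Muc2 had an adjusted p of 0.37.

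Called in the same direction in all 3 comparisons were 21 genes. Among those with names they were Fgf1, Tmem116, Cmbl, Cyb5r3, Ywhaz, Scpep1, Phgr1, Defa27 and Defa35, which rose, and Apobec3, Serhl and Polr2k, which fell; the other 9 were predicted genes and pseudogenes. Scpep1, a serine carboxypeptidase of lysosomes, was at 59.6, 55.0, 69.6 and 51.6 CPM in PparD and 138, 152, 193 and 122 CPM in PparDA, with log2 fold changes of 1.36, 1.12 and 1.16 in the 3 comparisons. Phgr1, a small protein of the gut epithelium, had 1.72, 1.92 and 1.70. Scpep1, Phgr1 and Defa27 were named after their values were seen.

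**Figure D5:**
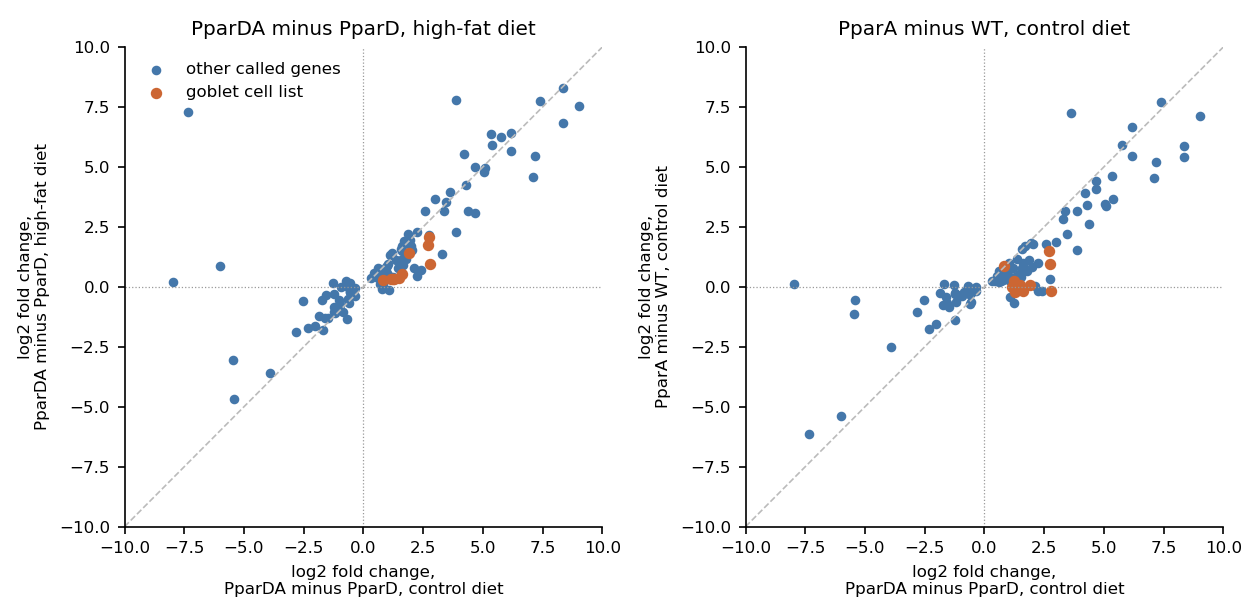
Log2 fold change of the 114 called genes, PparDA minus PparD on the control diet, on the x axes, against PparDA minus PparD on the high-fat diet (left) and PparA minus WT on the control diet (right); orange points are genes of the goblet cell list and the dashed line marks equal values. Over its 13 tested genes the goblet list had medians of 1.27 on the x axes, 0.34 at left and 0.05 at right.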

How the data were processed

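The authors deposited expected counts per gene, rounded to whole numbers, and log2(CPM + 1) values for the 32 libraries. Of the tools used by the authors, the processing notes list Salmon (1.1.0), R (4.0.2) and edgeR (3.30.2), with build mm10 and without roles. The sources used here do not say whether strand or molecular identifiers were used, so counting intervals cover counting error only. Genes were placed with GENCODE on mm10.

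The counts were fitted in edgeR 4.0.16 (R 4.3.3) over all 32 libraries with group and run as terms, TMM scaling, filterByExpr (minimum count 10) and the quasi-likelihood test, two-sided; SE is the log2 fold change over the root of F. Residual degrees of freedom were 21 and the common biological coefficient of variation 16.8%. The procedure was tested on simulated data. DESeq2 1.42.0 and limma 3.58.1, the latter on the deposited log2 values, were alternatives.

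The members and the 33 gene lists were chosen with earlier results of these data known. Named genes were the 12 largest rises and falls among called, non-overlapping genes with at least 10 CPM (no predicted genes or pseudogenes), called genes within 20 Mb of Ppara, a fixed set, and up to 3 members of each list by p. Lists were counted, not tested. Some named genes are not reported here.

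Columns carry library numbers, not the replicate numbers of the titles. Deviations from group means correlated at 0.08 to 0.24 within a run and -0.17 to 0.12 between runs. Genotype and place within the run cannot be told apart.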

Additional observations from a re-analysis of the deposited data

Results flagged for a closer look

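In 18 of 189 groups of 4 libraries examined, 1 library stood apart from the other 3 by Dixon's criterion for the gap over the range, where chance gives about 9.4. In PparD these were Mptx1 and Defa35, each with a single count (1.49 CPM) in 1 library and 0 in the others, Lrrc19 at 2.98 CPM, Sst at 3.03 CPM, Rpl31-ps8 at 191 CPM, Rplp0 at 6704 CPM, Defa17 at 1856 CPM and Defa24 at 9040 CPM. The last pair were both in the library of run 4, which held the highest Paneth sum of its group. In PparDA they were Fgf1 at 186 CPM, Guca2a at 138 CPM, Haus4 at 1.69 CPM, mt-Rnr2 at 10707 CPM, Deptor at 107 CPM, Fads2 at 11.8 CPM, Apoa4 at 133 CPM, Hnf4a at 130 CPM, Lyz1 at 4207 CPM and Defa29 at 1264 CPM.

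The genotype difference differed between the diets in 6 genes, of which 5 are given here as the control-diet minus the high-fat log2 fold change: Rps24 -1.43, Gm15536 -0.77, Gm28037 -0.72, Rpl31-ps8 -8.18 and Gm9794 -14.64. On the control diet each of the last pair had counts in a single library: Gm9794 had 125 CPM in the PparD library of run 1 and 0 in the other 7. The high-fat libraries also enter the value of Gm9794, and their levels are not given here. The difference from PparA against wildtype was called in 7 genes: Rps24 -1.34, Rps26 -1.14, Rps26-ps1 -1.10, Gm15536 -0.68, Rpl31-ps8 -8.09, Rpl28 1.001 and Add3 1.51. Apart from Add3 these are ribosomal protein genes and pseudogenes, whose reads can be split between near-identical sequences.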

How the results depend on the processing

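The count of called genes, 114, was 70 without the replicate block, 31 with runs 1 and 3 only, 57 with runs 2 and 4 only and 353 with no low-count filter, where 21299 genes were tested. It was 60 to 110 when 1 library was left out, the lowest without PparD replicate 2. The other settings gave 93 to 126. Without the replicate block PparA against wildtype called 33 genes, the difference between the diets 2 and the difference from PparA against wildtype 4. The signs of Lgr5 with runs 1 and 3 only (0.21), of Hadha (0.0451) and Acadl (-0.0232) with runs 2 and 4 only, of Hadha in left-out fits (-0.1794 to 0.0352) and of Angptl4 in left-out fits (-0.3511 to 0.4355) turned; none of these was called. The cause was not tested. All 59 called genes examined kept their direction in every setting where they were tested. Of the 59, 50 were tested in the 8 libraries alone, 49 at minimum count 30 and 58 with runs 2 and 4 only. Of the same 59, 24 kept their call in all 8 left-out fits, 13 in every setting, and 20 lost it without the replicate block. Of the 4 same-run correlations 1, at 0.08, lay under 0.1, and Xist and Ddx3y matched between the groups in each run. A residual spread of 16.8% and 4 libraries per group limit what small changes can pass.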

Other observations

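Hnf4a, a nuclear receptor that directs enterocyte and crypt epithelial gene expression, was named after its values were seen. It was at 229, 195, 235 and 239 CPM in PparD and at 130, 151, 149 and 152 CPM in PparDA, with no overlap (-0.63 ± 0.12, adjusted p 0.0023 in edgeR's test), and kept its call in all 8 left-out fits. On the high-fat diet its log2 fold change was 0.01, and the difference between the diets had an adjusted p of 0.36. Agr3 and Bmp3, also named after their values were seen, rose by 0.77 and 2.24 on the log2 scale. Agr3 is a relative of the goblet cell gene Agr2, and Bmp3 is a secreted ligand of the bone morphogenetic protein family. Their high-fat values were -0.11 and 0.46.

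Reg3b and Reg3g, secreted antibacterial lectins, varied widely within PparD. Reg3b was at 733, 3964, 1185 and 73.1 CPM in PparD and at 229, 104, 332 and 240 CPM in PparDA, and Reg3g at 417, 2857, 586 and 105 CPM and at 163, 97.9, 282 and 265 CPM. Neither was called (adjusted p 0.32 and 0.33), and the PparD library of run 2 was the highest of the 8 in both. Pseudogenes were 104 of the tested genes (1.77%) and 19 of the called genes (16.7%), 15 of them higher in PparDA. Their reads can be split with the parent genes, so these calls are uncertain.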
